A study of Mus musculus with 28 samples.

Results

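The neurotensin system was followed in the amygdala of female mice through 4 genes: *Nts*, which encodes the precursor of the neuropeptide neurotensin, and *Ntsr1*, *Ntsr2* and *Sort1*, which encode its 3 known receptors. They were taken by symbol from the annotation, GENCODE release M21 on GRCm38, out of the 49477 genes listed in the count tables of both batches of mice. All 4 passed the filter on low counts, a mean of 10 or more, as did 16266 genes in all. *Nts* was chosen by its measured count, which was higher in the Acute mice, so its difference between Acute mice and the other groups is given below as a description, without a test. The receptor genes were taken for their family, not for their values.

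The RNA-seq libraries came from micropunches holding the central and basolateral amygdala of 28 adult female C57BL6/J mice, bought at 7 weeks of age. Over a drinking period of 28 days with a choice of 2 tubes, the Chronic Drinking group (9 mice) had 20% ethanol and water every other day, the Acute Drinking group (9 mice) had 20% ethanol a single time, on the last day, and the Water Drinking group (10 mice) had only water. Tissue was collected on day 29 from all 3 groups, and drinking was voluntary, so the dose was set by each mouse. There were 4 Water, 4 Acute and 3 Chronic mice in batch 1, against 6, 5 and 6 in batch 2.

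Neurotensin is cut from its precursor by prohormone convertases and released by neurons, and the central amygdala is one of the brain regions rich in neurons that make it. NTSR1 and NTSR2 are G protein-coupled receptors; the first couples mainly to Gq and is made by neurons, and the second is found at high levels in astrocytes. Sortilin, the product of *Sort1*, is a sorting receptor of the Vps10p family that binds neurotensin along with many other ligands and moves cargo between the Golgi, endosomes and the cell surface. Peptidases outside the cell end the action of the peptide.

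Library totals ranged from 20004380 to 22569562 counts, and TMM factors, which scale the library sizes, ranged from 0.979 to 1.04. Values given as normalized counts were divided by these scaled library sizes and multiplied by their mean. Genes of the central amygdala list, among them *Sst* and *Tac2*, and of the pallial list, among them *Slc17a7*, were all measured. *Sst* is also made in cortex, and the pallial list is not particular to the amygdala. Of 6 hypothalamic peptide genes, 5 had means under 10 counts. The punches varied in what they held beside the amygdala. The summed normalized count of 5 choroid plexus markers ran from 256 to 88300 over the mice, and that of 8 striatal markers from 8560 to 34200. In bulk tissue, fewer cells of a type and less RNA per cell cannot be told apart. Mice, not cultures or pools, were the replicates.

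Across genes, levels were compared as CPM (counts scaled to a common library size) per kilobase of exon. On this scale *Sort1* was the most abundant of the 4, at 66.9 over all mice and above 96.7% of the genes tested. *Ntsr2* stood at 26.6, *Nts* at 21.2 and *Ntsr1* at 3.34, a level above 45.4% of the genes. Among 14 neuropeptide genes *Nts* ranked 6, below *Sst*, *Penk* and *Pdyn* among others and just above *Tac2* at 17.2. *Sst*, which encodes somatostatin, and *Penk*, the precursor of enkephalins, led this order at 367 and 331.

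The members also differed in how much they varied among mice of a group. After batch and group means were removed, the SD of log2 CPM was 0.318 for *Nts*, 0.207 for *Ntsr1*, 0.0883 for *Ntsr2* and 0.0826 for *Sort1*. Among 2963 genes with counts within 1.5 times those of *Nts*, the median SD was 0.103, and 97.7% of them varied less than *Nts* did. *Ntsr1* varied more than 86.1% of 2574 genes of like count, and *Ntsr2* and *Sort1* stood near the middle of theirs, at 57.8% and 51.5%.

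*Nts* lies on chromosome 10 (GRCm38, chr10:102481756-102490486, minus strand). Its upstream sequence is shown because activity-dependent transcription through AP-1, the dimer of Fos and Jun proteins, is a known property of this gene, and several Fos and Jun genes were measured in the same mice. The 182 bases before its GENCODE start, taken from RefSeq's promoter table (GRCm38.p6, chr10:102490487-102490668, minus strand, written 5′ to 3′ along the gene), are as follows, with an AP-1 match in capitals.
Nts upstream: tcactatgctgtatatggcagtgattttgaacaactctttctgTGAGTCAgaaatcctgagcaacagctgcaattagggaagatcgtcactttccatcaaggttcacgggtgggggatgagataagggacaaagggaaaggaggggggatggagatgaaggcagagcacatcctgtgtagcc
The AP-1 letters TGANTCA, which read alike on both strands, matched once, centred 136 bases before the start. Of 32851 promoters in the table, 4.96% held such a match in the same stretch of their entry, the first 182 bases, which begins 250 bases before the RefSeq start. Neither the cyclic AMP response element TGACGTCA, found in 0.609% of promoters, nor TATAAA, found in 8.45%, matched there on either strand. *Ntsr1* and *Ntsr2* had none of the 3 motifs in the same stretch of their entries, and *Sort1* has no entry. The bases between the end of this stretch and the RefSeq start were not scanned. A motif there would have been missed, so these absences and shares do not cover the whole promoter. A match of letters is a description and not a bound site.

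*Nts*, chosen by its values in Acute mice, is described first. In batch 1 the Acute mice had 889, 741, 870 and 590 normalized counts, and the Water mice had 470, 653, 567 and 371. All but 1 of these Acute mice were above every Water mouse, and the Acute mean was 772 ± 138 (SD, n = 4) against 515 ± 122 (SD, n = 4). In batch 2 the Acute mice had 597, 791, 474, 738 and 369 counts, while the 6 Water mice ran from 286 over a median of 425 to 540. Here 3 of 5 Acute mice were above every Water mouse and the other 2 lay inside the Water range, with means of 594 ± 177 (SD, n = 5) and 412 ± 90.1 (SD, n = 6).

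With batch as a covariate, *Nts* was 1.47-fold higher in Acute than in Water mice, a log2 difference of 0.55 (SE 0.13, 95% confidence interval 0.28 to 0.82). This interval makes no allowance for the choice of *Nts* by the same contrast, so it does not serve as a test. Fitted alone, batch 1 gave 0.58 and batch 2 gave 0.52, and the difference between these, second minus first, was -0.06 (SE 0.28). With the batch effect removed, 8 of 9 Acute mice lay above the mean of the Water mice and 6 lay above all of them, and 9.55% of all genes had at least 8 Acute mice above it. No p is given and nothing is read from that share, because this contrast chose the gene. Leaving out 1 mouse at a time, the log2 difference ran from 0.49, without Acute 2, to 0.62, without Acute 5.

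In Chronic mice *Nts* lay between the other groups. The 3 Chronic mice of batch 1 had 463, 739 and 591 normalized counts, and the 6 of batch 2 ran from 377 over a median of 504 to 563. Chronic and Water mice overlapped in both batches, although 7 of 9 Chronic mice were above the Water mean with batch removed. The log2 difference from Water was 0.24 (SE 0.13, 95% confidence interval -0.03 to 0.51) and did not pass the edgeR quasi-likelihood test (unadjusted p = 0.0811, Benjamini-Hochberg adjusted p = 0.535). The Water mice are shared with the contrast that chose *Nts*. In this comparison edgeR called 3 genes, or 0.0184% of those tested, and 4.81% were higher at an unadjusted p under 0.05. Against the Acute mice, as a description, *Nts* was lower in Chronic mice, with a log2 difference of -0.31 (SE 0.13), -0.37 in batch 1 and -0.27 in batch 2, and all 9 Chronic mice were below the Acute mean. The share of all genes with this pattern was 0.842%, and nothing is read from it here, since the Acute values chose *Nts*.

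The order of levels of *Nts* was therefore Water, Chronic, Acute in each batch, and the neighbours Water and Chronic did not differ beyond their spread. *Nts* was also lower in batch 2 than in batch 1, with a log2 difference of -0.33 once the groups were accounted for, so counts were compared only within batches or with batch in the fit.

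**Figure D1:**
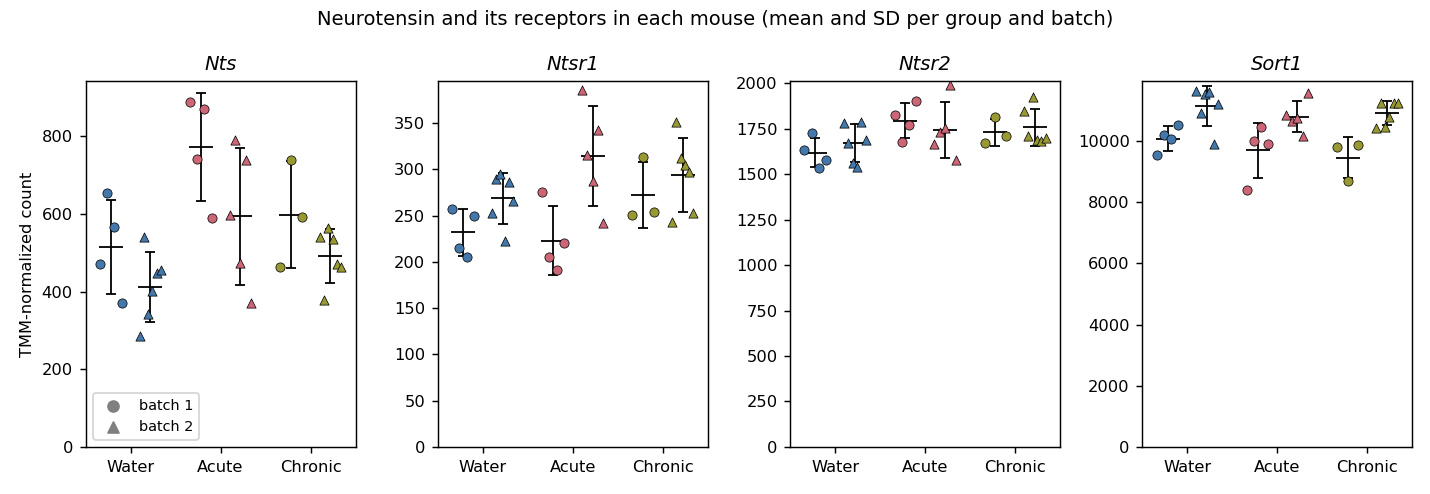
TMM-normalized counts (y axis, from 0) of the 4 genes in each mouse, by drinking group and batch (circles batch 1, triangles batch 2), with the mean and SD of each group and batch. *Nts* is highest in the Acute mice of both batches, with overlap, whereas the groups of *Ntsr2* and *Sort1* lie almost level.

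*Ntsr1* (chr2:180499976-180544980, plus strand), the neuronal Gq-coupled receptor, did not pass the test in any comparison, and its direction in Acute mice was not shared by the batches. In batch 1 the Acute mice had 276, 206, 191 and 220 normalized counts against 257, 215, 206 and 250 in the Water mice. Acute mice of batch 2 had 386, 316, 288, 343 and 242, and the 6 Water mice there ran from 223 over a median of 276 to 295. Acute and Water mice therefore overlapped throughout, with 3 of 5 Acute mice above every Water mouse in batch 2 and 1 of 4 in batch 1.

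The log2 difference of *Ntsr1* between Acute and Water mice was 0.11 (SE 0.09, edgeR adjusted p = 0.716), with -0.06 from batch 1 alone and 0.23 from batch 2 alone, and 0.05 without Acute 1. The difference between the batches, 0.28 (SE 0.18), did not pass the edgeR test of the batch by group term (adjusted p = 0.999). For Chronic mice the log2 difference from Water was 0.16 (SE 0.09, unadjusted p = 0.0879, edgeR adjusted p = 0.55), with 0.23 and 0.13 in the batches. Chronic mice of batch 1 had 251, 313 and 254 normalized counts, and those of batch 2 ran from 244 over a median of 301 to 352, so 7 of 9 lay above the Water mean with batch removed. Chronic and Acute mice differed by 0.05 on the log2 scale (SE 0.09, edgeR adjusted p = 0.999), a value of 0.29 in batch 1 and -0.10 in batch 2.

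*Ntsr2* (chr12:16653382-16660227, plus strand), the receptor known from astrocytes, was slightly higher in both drinking groups and passed no adjusted test. Acute mice of batch 1 had 1825, 1674, 1773 and 1904 normalized counts against 1634, 1724, 1536 and 1578 in Water mice, so 3 of 4 lay above every Water mouse. In batch 2 the Acute mice had 1667, 1734, 1753, 1989 and 1575, and the Water mice ran from 1540 over a median of 1678 to 1785. There 1 of 5 Acute mice was above the Water range, and the groups overlapped widely.

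For *Ntsr2* the log2 difference between Acute and Water mice was 0.10 (SE 0.04), which had an unadjusted p of 0.0196 and an edgeR adjusted p of 0.469. It was 0.15 in batch 1 alone (unadjusted p = 0.0188) and 0.06 in batch 2 alone (unadjusted p = 0.305). Among all genes, 9.52% had an unadjusted p under 0.05 in this comparison, 5.06% being higher, and edgeR called 0 of them. Chronic mice differed from Water by 0.08 (SE 0.04, unadjusted p = 0.0482, edgeR adjusted p = 0.474), in a comparison where 10.5% of genes had an unadjusted p under 0.05. The batches alone gave 0.10 and 0.07 for this difference, and offsets for gene length and GC content lowered it to 0.05 (unadjusted p = 0.188). With the same offsets the difference between Acute and Water mice was 0.07 (unadjusted p = 0.0831). The 3 Chronic mice of batch 1 had 1669, 1812 and 1707 normalized counts, and the 6 of batch 2 ran from 1682 over a median of 1702 to 1923. All 9 Chronic mice lay above the mean of the Water mice with batch removed, and so did all 9 Chronic mice for 2.16% of the genes. Chronic and Acute mice differed in *Ntsr2* by -0.02 on the log2 scale (SE 0.04, 95% confidence interval -0.10 to 0.07, edgeR adjusted p = 0.999).

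Astrocyte markers were set beside *Ntsr2*. Their score, the mean log2 CPM of 5 markers, differed by -0.03 between Acute and Water mice (exact permutation p = 0.528, adjusted p = 0.973), and its correlation with *Ntsr2* over the 28 mice was 0.173 (rho 0.232, permutation p = 0.413, adjusted p = 0.585). With the astrocyte score as a covariate, the log2 differences of *Ntsr2* from Water were 0.10 in Acute and 0.08 in Chronic mice. With the central amygdala score in its place they were 0.07 (unadjusted p = 0.0801) and 0.08 (unadjusted p = 0.049). *Aldh1l1*, an enzyme gene of astrocytes, had an unadjusted p of 0.0195 in Acute mice at a log2 difference of 0.14, and *Gfap*, which encodes their intermediate filament, was at -0.20 (unadjusted p = 0.11). Both missed the threshold after adjustment (edgeR adjusted p = 0.468 for *Aldh1l1*).

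*Sort1* (chr3:108284082-108361511, plus strand), the sorting receptor, differed least between the groups. In batch 1 the Acute mice had 8409, 9996, 10473 and 9894 normalized counts against 9531, 10186, 10066 and 10517 in Water mice. In batch 2 the Acute mice had 10852, 10654, 10763, 10167 and 11554, and the Water mice ran from 9913 over a median of 11370 to 11644. No Acute mouse was above the Water range in either batch, and only Acute 33 was below it with batch removed. The log2 differences from Water were -0.05 in Acute mice (SE 0.04, 95% confidence interval -0.13 to 0.03, edgeR adjusted p = 0.695) and -0.05 in Chronic mice (SE 0.04, 95% confidence interval -0.13 to 0.03, edgeR adjusted p = 0.659). The batches alone gave -0.06 and -0.05 for Acute and -0.09 and -0.03 for Chronic mice. Without Acute 33 the Acute value was -0.03, and without Chronic 38 the Chronic value was -0.03. These intervals leave room for a fall of about 0.13 on the log2 scale, and for little rise. The antisense gene *Gm12523* overlaps the start of *Sort1*, and counts of the pair may not be fully separable.

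**Figure D2:**
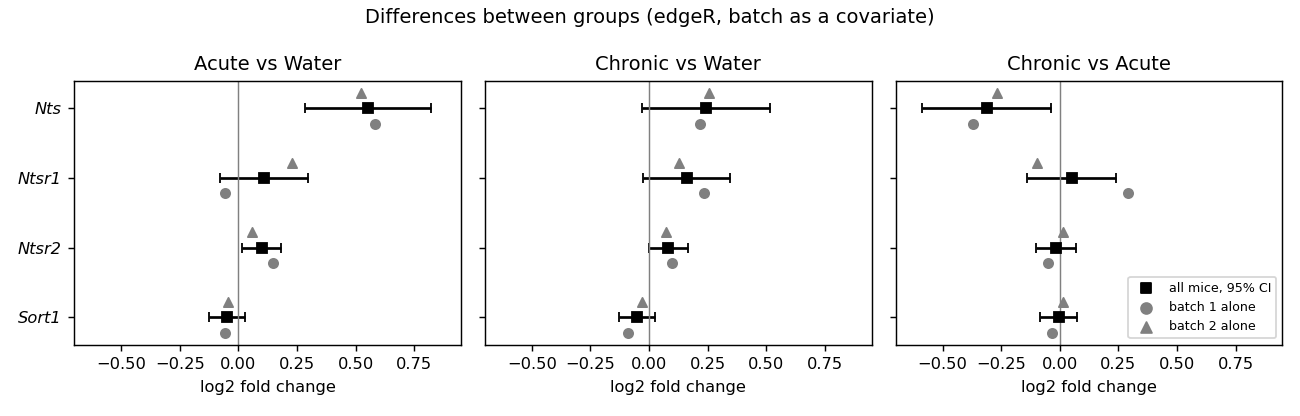
Log2 fold changes (x axis) of the 4 genes in the 3 comparisons, with 95% confidence intervals of the fit over all 28 mice (black squares) and the values of batch 1 (circles) and batch 2 (triangles) alone. *Nts* is at 0.55 in Acute against Water mice, with both batches close by, whereas the batches of *Ntsr1* fall on both sides of 0. The intervals of *Nts* in comparisons with Acute mice, whose values chose the gene, do not serve as a test.

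The precursor's maturation needs other genes, of which 8 of 9 on the list could be compared. Convertases PC1 and PC2, encoded by *Pcsk1* and *Pcsk2*, carboxypeptidase E (*Cpe*) and the glutaminyl cyclase *Qpct*, which closes the N-terminal ring found in neurotensin, were among them. In Acute mice 0 of 8 were called by edgeR, which called 0 of all 16266 genes there. At an unadjusted p under 0.05, 2 of 8 were higher, where 5.06% of all genes were. The median log2 difference of the list was 0.04, against 0.00113 over all genes. *Qpct* was higher by 0.23 (SE 0.07, unadjusted p = 0.00358, edgeR adjusted p = 0.396) in Acute mice and stood at 0.02 in Chronic mice (unadjusted p = 0.806).

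*Pcsk1n*, which encodes proSAAS, an inhibitor of PC1, had the smallest p of the list in both comparisons with Water. Its log2 difference was 0.14 in Acute mice (SE 0.04, edgeR adjusted p = 0.328) and 0.18 in Chronic mice (SE 0.04, edgeR adjusted p = 0.156). DESeq2 with batch as a covariate called it in Chronic mice (adjusted p = 0.0154), and DESeq2 after ComBat-seq called it in Acute (adjusted p = 0.0482) and Chronic mice (adjusted p = 0.00252). Without Water 3, edgeR also called it in Chronic mice (adjusted p = 0.0438). *Cpe* was the most abundant gene of this list, at 818 CPM per kilobase.

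Peptidases that can cleave neurotensin were measured for all 8 genes of their list, and edgeR called 0 of 8 in each comparison. Of all 16266 genes it called 0 in Acute and 3 in Chronic mice against Water, and 0 in Chronic against Acute mice. In Acute mice 4 were positive and 4 negative, with a median log2 difference of -0.00373. There 0 of 8 had an unadjusted p under 0.05, against 9.52% of all genes. Thimet oligopeptidase, *Thop1*, had a log2 difference of 0.11 in Chronic mice (SE 0.04, unadjusted p = 0.0172, edgeR adjusted p = 0.355). In that comparison 10.5% of all genes had an unadjusted p under 0.05. Neprilysin, *Mme*, stood at -0.26 in Chronic mice (SE 0.17, unadjusted p = 0.133) and at a low level, 0.733 CPM per kilobase. *Ece2*, an endothelin-converting enzyme, was at 0.15 in Acute and 0.17 in Chronic mice, with unadjusted p-values of 0.164 and 0.115.

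Sortilin's relatives of the Vps10p family had small differences. All 4 were tested, and edgeR called 0 of 4 in each comparison. Of all 16266 genes it called 0 in Acute and 3 in Chronic mice against Water, and 0 in Chronic against Acute mice. The log2 differences of the 4 from Water lay between -0.02 and 0.05 for Acute mice and between -0.05 and 0.03 for Chronic mice. *Sorl1*, at 24.4 CPM per kilobase, was the most abundant of them, and *Sorcs1* had the widest difference between the drinking groups, -0.10 in Chronic against Acute mice (unadjusted p = 0.189).

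Of the Gq signalling genes downstream of NTSR1, 14 of 15 could be compared and edgeR called 0 of 14 in each comparison. Of all 16266 genes it called 0 in Acute and 3 in Chronic mice against Water, and 0 in Chronic against Acute mice. *Itpr1*, the main IP3 receptor of neurons, stood at -0.24 in Chronic mice (SE 0.10, unadjusted p = 0.0282, edgeR adjusted p = 0.41). Between the drinking groups *Itpr3* had a log2 difference of -0.32, Chronic minus Acute (SE 0.10, unadjusted p = 0.002), and *Rgs4*, a regulator that ends Gq signals, had -0.21 (SE 0.07, unadjusted p = 0.00834). In that comparison 3 of 14 genes were lower at an unadjusted p under 0.05, where 2.5% of all genes were, and none passed adjustment.

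*Nts* was set beside 13 other neuropeptide genes of the amygdala. In Acute mice 12 of 13 had a positive log2 difference from Water, with a median of 0.16. Over all genes the median was 0.00113, and 8224 of 16266 were positive. Calls by edgeR were 0 of 13, and 0 over all genes. At an unadjusted p under 0.05 there were also 0 of 13, against 9.52% of all genes. *Crh*, *Sst* and *Tac2* are also among the 6 central amygdala markers, whose score differed by 0.14 between Acute and Water mice (exact permutation p = 0.0949, adjusted p = 0.973), and the part of that score in these values was not tested. The dynorphin precursor *Pdyn* was at 0.31 (SE 0.20), the corticotropin-releasing hormone gene *Crh* at 0.29 (SE 0.15, unadjusted p = 0.0573), *Penk* at 0.28, *Tac2*, the neurokinin B precursor, at 0.27 and the nociceptin precursor *Pnoc* at 0.26 (SE 0.13, unadjusted p = 0.0508). *Nts* itself was chosen by its value in this contrast, so its place among them is not a result.

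In Chronic mice 8 of 13 were positive, with a median of 0.08. At an unadjusted p under 0.05 there was 1 of 13, where 10.5% of all genes had such a p, and it was the CART peptide gene *Cartpt* at 0.33 (SE 0.16, unadjusted p = 0.0432, edgeR adjusted p = 0.458). *Pdyn* and *Penk* stood at -0.07 and -0.11 in Chronic mice. Between the drinking groups they had the lowest p-values of the list, at -0.38 (unadjusted p = 0.0808) and -0.40 (unadjusted p = 0.0844) in Chronic against Acute mice. All 8 striatal markers also had negative values in that comparison, from -0.46 to -0.25 with a median of -0.37. Of all genes, 8225 of 16266 were negative there. An unadjusted p under 0.05 was found for 0 of the 8, against 4.44% of all genes. In Chronic mice against Water all 8 were negative as well, with a median of -0.35, where 7971 of 16266 genes were. There 2 of 8 were lower at an unadjusted p under 0.05, where 5.65% of all genes were. The part of the striatal markers in the values of *Pdyn* and *Penk* was not tested. The comparisons with Water share the Water mice.

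**Figure D3:**
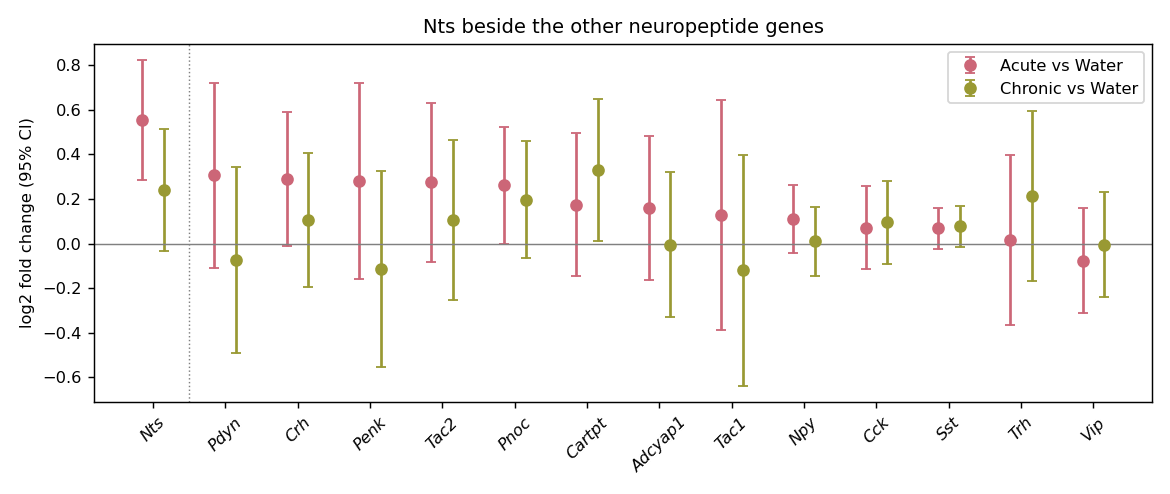
Log2 fold changes against Water (y axis, with 95% confidence intervals) of *Nts*, left of the dotted line, and of 13 other neuropeptide genes ordered by their value in Acute mice (red Acute, olive Chronic). In Acute mice 12 of 13 lie above 0, and the intervals of all 13 hold 0. The interval of *Nts* in Acute mice, whose values chose the gene, does not serve as a test.

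Activity-dependent genes, among them subunits of AP-1, showed no called difference on day 29. Of 7 immediate early genes compared, edgeR called 0 of 7 and 0 of 7 had an unadjusted p under 0.05 in Acute mice, with a median log2 difference of 0.03. Over all genes edgeR also called 0 in Acute against Water mice, and 9.52% had such an unadjusted p. *Fos* was at 0.19 (SE 0.10, unadjusted p = 0.0623, edgeR adjusted p = 0.545), *Fosb* at -0.02 and *Junb* at 0.03. In Chronic mice the same 3 genes stood at 0.05, -0.06 and 0.00338. Over the 28 mice, with batch and group means removed, the score of this list and *Nts* had a Pearson r of -0.316 (rho -0.333, permutation p = 0.0738 for r, adjusted p = 0.155).

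*Nts* followed the markers of the central amygdala from mouse to mouse. Over the 28 mice its log2 CPM correlated with the mean of 6 central amygdala markers at r = 0.69 and rho = 0.684 after removal of batch and group means (permutation p = 3e-05 for r and 9e-05 for rho, adjusted p = 0.0006 and 0.0012 over 40 pairs of a member and a list). Without the 2 mice farthest from the median of *Nts*, r was 0.743, and r was 0.801 in batch 1 and 0.637 in batch 2. The opposite sign held for the markers of pallial excitatory neurons, such as the vesicular glutamate transporter *Slc17a7*, with r = -0.641 and rho = -0.693 (permutation p = 0.00141 and 0.00025, adjusted p = 0.0113 and 0.0025). Without the same 2 mice this r was -0.642, and it was -0.717 in batch 1 and -0.606 in batch 2.

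Within the central amygdala list, *Tac2* had the closest relation to *Nts*, at r = 0.765, followed by *Dlk1* at 0.674 and *Crh* at 0.549. *Sst*, which is made by neurons across the whole amygdala and cortex, had an r of 0.251, and *Calcrl*, the CGRP receptor gene, had -0.114. Striatal markers were not alike to *Nts*: the correlation of their score was 0.171 (rho 0.205, permutation p = 0.439, adjusted p = 0.585). *Vip*, a peptide gene of cortical interneurons that was chosen after its values were seen, had an r of -0.63.

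The central amygdala score was itself 0.14 higher on the log2 scale in Acute than in Water mice (exact permutation p = 0.0949 over 32340 regroupings within batches, adjusted p = 0.973 over 30 comparisons), and 0.03 higher in Chronic mice (exact permutation p = 0.774). It ran from -0.317 to 0.237 in the Water mice, from -0.186 to 0.416 in the Acute mice and from -0.489 to 0.324 in the Chronic mice, relative to the Water mean. The summed normalized count of its 6 markers lay between 6910 and 8840 in Water, 7650 and 9210 in Acute and 6890 and 9060 in Chronic mice. With this score as a covariate, the log2 difference of *Nts* was 0.39 (SE 0.10) in Acute and 0.20 (SE 0.10) in Chronic mice against Water, and -0.19 between the drinking groups. What part the amount of central amygdala in the punch had in the difference of *Nts* was not tested.

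None of the 10 marker scores differed between groups after adjustment, the lowest adjusted p being 0.973 by the exact permutation tests. The striatal score had the lowest unadjusted p, 0.0565, at -0.40 in Chronic against Acute mice.

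**Figure D4:**
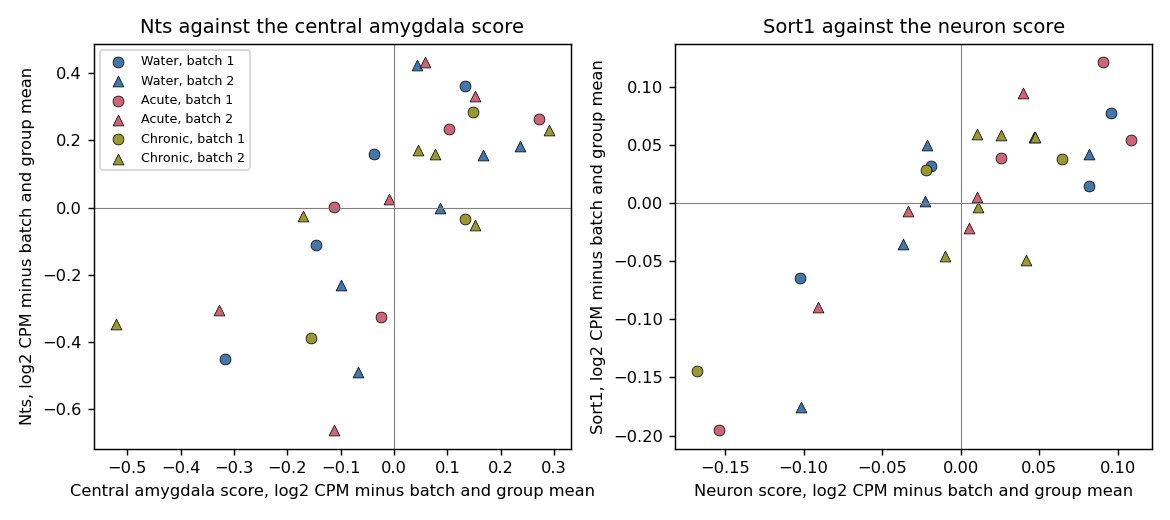
Left, *Nts* against the mean of 6 central amygdala markers, and right, *Sort1* against the mean of 5 neuron markers, each as log2 CPM minus the batch and group mean, with 1 point a mouse (colours drinking groups, circles batch 1, triangles batch 2). *Nts* goes up with the score at r = 0.69 and *Sort1* at r = 0.842, and points of all groups lie along both clouds.

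*Sort1* followed the general neuron markers instead. Its correlation with the mean of 5 of them, such as the synaptic genes *Snap25* and *Syt1*, was r = 0.842 and rho = 0.752 (permutation p = 2e-05 for each, adjusted p = 0.0006 and 0.0008). Without the 2 mice farthest from its median r was 0.789, with 0.907 in batch 1 and 0.759 in batch 2. It also went with the pallial markers, at r = 0.797 and rho = 0.713 (permutation p = 5e-05 and 4e-05, adjusted p = 0.000667 and 0.0008), and without those mice at 0.713. With the central amygdala score its r was -0.461 (rho -0.466, permutation p = 0.00693 and 0.0168, adjusted p = 0.0396 and 0.0575), and -0.343 without 2 mice (permutation p = 0.0734), -0.48 in batch 1 and -0.474 in batch 2. The immediate early gene score gave r = 0.598 (rho 0.47, permutation p = 0.00509 and 0.0173, adjusted p = 0.0339 and 0.0575), 0.382 without 2 mice, 0.85 in batch 1 and 0.35 in batch 2. With the oligodendrocyte markers r was -0.51 (rho -0.463, permutation p = 0.0137 and 0.016, adjusted p = 0.0457 and 0.0575), -0.443 without 2 mice, -0.726 in batch 1 and -0.264 in batch 2 (permutation p = 0.264), and it missed the threshold under RLE scaling (adjusted p = 0.0518).

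*Ntsr2* had the opposite sign of *Sort1* with several lists. Its r was -0.624 with the pallial markers (rho -0.587, permutation p = 0.00128 and 0.00251, adjusted p = 0.0113 and 0.0201), -0.551 without 2 mice, -0.576 in batch 1 and -0.707 in batch 2. With the oligodendrocyte markers, such as *Mbp* of myelin, r was 0.476 (rho 0.494, permutation p = 0.0108 and 0.00609, adjusted p = 0.0457 and 0.0393), and 0.364 without 2 mice (permutation p = 0.122), 0.401 in batch 1 and 0.548 in batch 2 (permutation p = 0.0233). That relation missed the threshold under RLE scaling (adjusted p = 0.0518).

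The neuron markers gave *Ntsr2* an r of -0.453 (rho -0.433, permutation p = 0.00834 and 0.0221, adjusted p = 0.0417 and 0.0633), -0.414 without 2 mice, -0.518 in batch 1 and -0.517 in batch 2, and an adjusted p of 0.0484 under RLE scaling. With the immediate early genes its r was -0.471 (rho -0.516, permutation p = 0.0131 and 0.00845, adjusted p = 0.0457 and 0.0422) and -0.399 without 2 mice (permutation p = 0.0989), -0.514 in batch 1 and -0.464 in batch 2. The central amygdala score gave 0.455 (rho 0.526, permutation p = 0.0162 and 0.00688), with an adjusted p of 0.0499995 for r and 0.0393 for rho, and 0.362 without 2 mice (permutation p = 0.107), 0.57 in batch 1 and 0.413 in batch 2. Under RLE scaling the relations to the immediate early genes and the central amygdala score missed the threshold for r, with adjusted p-values of 0.0518 and 0.0569.

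*Ntsr1* had 1 relation past the threshold, with the neuron markers, at r = -0.503 (rho -0.451, permutation p = 0.0131 and 0.0295, adjusted p = 0.0457 and 0.0787). It was -0.526 without 2 mice, -0.763 in batch 1 and -0.244 in batch 2 (permutation p = 0.327), so it did not hold in batch 2, and its adjusted p was 0.0518 under RLE scaling. In all, 13 of 40 pairs of a member and a list had an adjusted p under 0.05 for r, and 8 of 40 under RLE scaling. All of these values rest on relative counts of one library per mouse, in which a higher share of some RNAs is a lower share of others.

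**Figure D5:**
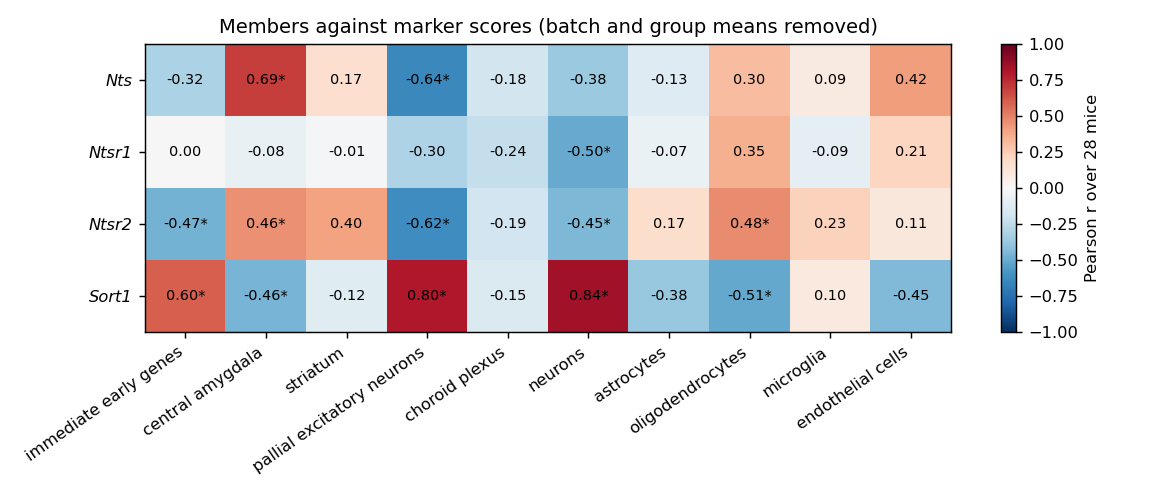
Pearson r over the 28 mice (colour and number, red positive, blue negative) between each of the 4 genes (rows) and 10 marker scores (columns), with batch and group means removed and an asterisk where the adjusted permutation p is under 0.05. *Nts* is highest with the central amygdala markers at 0.69 and *Sort1* with the neuron markers at 0.842.

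Among themselves, the peptide gene and the G protein-coupled receptor genes all ran against *Sort1*. The Pearson r with *Sort1* was -0.52 for *Nts* (rho -0.584, permutation p = 0.00762 and 0.00223), -0.524 for *Ntsr1* (rho -0.5, permutation p = 0.00626 and 0.0172) and -0.535 for *Ntsr2* (rho -0.517, permutation p = 0.00312 and 0.0096). Each had an adjusted p of 0.0152 for r over the 6 pairs, and r was -0.455, -0.53 and -0.49 without the 2 mice farthest from the median of the first gene. Within batches the relation of *Nts* was -0.375 and -0.662, that of *Ntsr1* was -0.763 and -0.326 and that of *Ntsr2* was -0.347 and -0.706, in batch 1 and batch 2.

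The remaining 3 pairs did not include *Sort1*. *Nts* and *Ntsr2* had r = 0.387 (rho 0.403, permutation p = 0.0831 and 0.0592, adjusted p = 0.125 and 0.0887), *Nts* and *Ntsr1* had 0.163 (rho 0.184, permutation p = 0.448 and 0.367, adjusted p = 0.448 and 0.44), and the receptor pair had 0.168 (rho 0.141, permutation p = 0.445 and 0.502, adjusted p = 0.448 and 0.502). None of these 3 passed the threshold, and without 2 mice their r were 0.404, 0.0136 and 0.304.

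Over 11722 other genes averaging 100 counts or more, the 5 most like *Nts* from mouse to mouse were *Phlda3* (r = 0.777), *Tac2* (0.765), *Rerg* (0.76), *Gpc3* (0.749) and *Ssbp2* (0.746), over 28 mice with batch and group means removed. For *Phlda3*, a repressor of Akt signalling that p53 induces, r was 0.787 in batch 1 and 0.773 in batch 2. The log2 differences from Water of these 5 genes were positive in both drinking groups. They ran from 0.06 for *Ssbp2* to 0.27 for *Tac2* in Acute mice and from 0.03 for *Ssbp2* to 0.25 for *Phlda3* in Chronic mice. Of all genes tested, 8224 of 16266 were positive in Acute and 8295 in Chronic mice. Nothing is read from these signs, since the genes were chosen for their likeness to *Nts*.

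The 3 genes most like *Ntsr1* were *Limk1*, a kinase of actin dynamics (r = 0.815), *Htr1a*, the serotonin 1A receptor gene (0.789), and *Gtf2ird1* (0.788). For *Htr1a*, r was 0.88 in batch 1 and 0.736 in batch 2, and its log2 difference from Water was 0.25 in Chronic mice. *Ntsr2* was most like *Rtl8a* (0.753), *Ift52* of the cilium (0.748) and *Agbl5* (0.741). *Sort1* was most like *Rab6b*, a neuronal Rab protein of Golgi traffic (0.931), *Cnksr2*, a synaptic scaffold gene (0.915), and *Nlk* (0.915). These genes were chosen for their r, which is a description, and many genes share the same libraries and composition.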

How the data were processed

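RNA from the amygdala of 28 mice, kept as 2 batches of animals, was sequenced as paired-end reads on a BGISEQ-500. The authors ran FastQC 0.11.8, quantified reads with Salmon 0.14.1 on a GRCm38 transcriptome and summarized them by gene with tximport; the deposited tables hold whole-number counts per gene and mouse, without batch adjustment, one table a batch. Gene identifiers found in both tables, 49477 in number, were used. Each mouse's group and batch came from its label. Whether a counted gene and its antisense partner were separated by strand is not given in the sources used here.

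The software was R 4.3.3, edgeR 4.0.16 and Python 3.11.15 with scipy 1.17.1. Genes averaging 10 counts or more were kept, libraries were scaled by TMM, and groups were compared over all 28 mice by the quasi-likelihood test of edgeR, with a batch term and Benjamini-Hochberg adjustment over 16266 genes (threshold 0.05, 2-sided). CPM used a prior count of 2. Marker scores are mean log2 CPM of a list; groups were compared by exact permutation within batches and correlations by 100000 permutations within group and batch, all 2-sided. DESeq2 1.42.0, limma 3.58.1 and sva 3.50.0 (ComBat-seq) served for alternatives. Scripts were tested on simulated data, and 55 pairs of mice of the same group and batch were checked for duplicated libraries (chi-square per degree of freedom 4.40 to 24.7), with none found.

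The members, the gene lists and the tests were chosen with earlier results of these data known. The genes named were the 4 members, the 5 most like *Nts* and the 3 most like each other member, and in each list any called gene, the 2 with the smallest p per comparison and the 2 with the highest level; others are said to be chosen after their values were seen, and some genes that this rule would name are not reported here. *Gal*, *Grp*, *Npas4*, *Pcsk5* and *Plcb3*, present in one table, were not compared. Promoter sequence came from RefSeq (GRCm38.p6), where 3 of the 4 members matched. Alternatives were RLE scaling, other tools, other filters, each batch alone, only the groups compared, a replicate block, length and GC offsets, marker scores as covariates, and leaving out each mouse.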

Additional observations from a re-analysis of the deposited data

How the results depend on the processing

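The log2 difference of *Nts* kept its sign in each alternative, from 0.39 with the central amygdala score as a covariate to 0.58 in batch 1 alone for Acute against Water mice, from 0.20 to 0.26 for Chronic against Water and from -0.37 to -0.19 for Chronic against Acute. These fits, and those leaving out 1 mouse below, reuse the mice whose values chose *Nts*. Its kept sign in comparisons with Acute mice is therefore a description and no support for the difference. No alternative called a receptor gene. Their signs changed only in these cases: *Ntsr1* in Acute against Water mice was -0.0571 in batch 1 alone, and in Chronic against Acute mice *Ntsr1* was -0.10, *Ntsr2* 0.0129 and *Sort1* 0.0158 in batch 2 alone, *Ntsr2* was 0.0059 with the central amygdala score and *Sort1* 0.0077 with the astrocyte score. The cause was not tested.

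Leaving out 1 mouse at a time, the Acute difference ran from 0.49 to 0.62 for *Nts*, 0.05 to 0.15 for *Ntsr1*, 0.08 to 0.12 for *Ntsr2* and -0.07 to -0.03 for *Sort1*. The Chronic difference ran from 0.19 to 0.30, 0.11 to 0.20, 0.07 to 0.10 and -0.07 to -0.03 in the same order. Chronic against Acute ran from -0.39 to -0.25, 0.0029 to 0.11, -0.0382 to 0.0085 and -0.0231 to 0.0199; *Ntsr2* changed sign without Acute 4 and *Sort1* in 7 of 28 fits (0.0026, 0.011, 0.00076, 0.0199, 0.0098, 0.0023 and 0.0019). Genes called ran from 0 to 2 in Acute, 2 to 6 in Chronic and 0 in Chronic against Acute mice, and list genes called from 0 to 1 in Chronic mice, the 1 being *Pcsk1n*.

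Over all genes, edgeR called 0 in Acute, 3 in Chronic and 0 in Chronic against Acute mice (1548, 1702 and 723 at an unadjusted p under 0.05). DESeq2 called 8 and 36, DESeq2 after ComBat-seq 30 and 98, limma-voom 2 and 2 in the first 2 comparisons, and the fit without a filter called 1 in Acute and 1 in Chronic against Acute mice. For Chronic mice batch 1 alone gave 0, only the groups compared gave 2, and the offsets with or without the block gave 1. List genes called were 1 with DESeq2 in Chronic mice and 1 in each of Acute and Chronic mice after ComBat-seq. Between members, r of *Nts* with *Ntsr1* was -0.0463 in batch 1; r with *Sort1*, by permutation p adjusted over the 6 pairs, missed the threshold within batches for *Nts* (-0.375 in batch 1, adjusted p = 0.591), *Ntsr1* (-0.763 in batch 1, adjusted p = 0.116, and -0.326 in batch 2, adjusted p = 0.267) and *Ntsr2* (-0.347 in batch 1, adjusted p = 0.591). RLE scaling left 8 of 13 relations to marker scores. Poisson counting error at the members' mean counts is 0.0614, 0.0879, 0.0348 and 0.0141 on the log2 scale for *Nts*, *Ntsr1*, *Ntsr2* and *Sort1*, against SDs among mice of 0.318, 0.207, 0.0883 and 0.0826.

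Mouse numbers are shared by the groups of batch 2. Same-numbered mice had correlations from -0.346 to 0.338 (median -0.00795, 4 of 16 over 0.1). Mice of different number had correlations from -0.364 to 0.422 (median 0.0232, 26 of 80 over 0.1), so no pairing by number was seen. With the number as a replicate block, the Acute difference of *Nts* was 0.55 and that of *Ntsr2* 0.10, edgeR called 0, 3 and 0 genes, and no call of a member changed.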
